A study of Mus musculus with 21 samples.

Results

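The 36 lymphocyte genes described here mark T cells, immature thymocytes, B cells, plasma cells, cytotoxic and natural killer (NK) cells and regulatory T cells. They were taken by gene symbol from a list of lineage genes, by a rule that uses no level or fold change, and 36 of 36 were found among the 45777 genes of the deposited tables. The libraries were made from thyroid glands of C57BL/6J mice, with 3 libraries in each of 7 groups. Mice of the TSH-MMI group carried the vectors pLIVE-TSHB and pLIVE-CGA and were also given thiamazole (methimazole, MMI), at 1 week and at 4 weeks. Mice of the TSH group carried the same pair of vectors without the drug, at 1 week and at 4 weeks. Mice of the Empty-MMI group carried pLIVE-Empty and were given thiamazole, at 4 weeks. Mice of the Empty group carried pLIVE-Empty alone, at 1 week and at 4 weeks. TSHB and CGA encode the subunits of thyrotropin (TSH), the pituitary hormone that drives thyroid growth and hormone synthesis, and MMI blocks the synthesis of thyroid hormone. Every mouse, the Empty group included, had received a pLIVE plasmid, a type of vector made for expression in liver, and the labels list induction of hyperthyroidism for all 21 libraries. The sources used here do not give age, sex or drug dose, nor whether each library came from its own animal, and p-values therefore cover only the spread among these libraries, which may be technical.

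Developing T cells in the thymus cut and join their antigen receptor genes with the recombinase made by Rag1 and Rag2, and mature T cells that have left the thymus no longer make it. B cells signal through the Cd79a and Cd79b pair of their receptor, and plasma cells join secreted antibody of the IgM and IgA classes with the J chain. The mouse thyroid lies close to thymic, parathyroid and muscle tissue in the neck, and lymphocytes gather in the gland in autoimmune thyroid disease.

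Totals ran from 32244842 to 51886245 counts per library, and thyroglobulin, the precursor protein of thyroid hormone, took 17.2% to 30.5% of them. Depth mattered here, because most of these genes were read only a few times. By the median over all libraries, 33 of 36 members lay under 1 FPKM, a level scaled by gene length and library depth. The exceptions were Cd79b at 7.39 FPKM, Lck at 1.61 FPKM and Mzb1 at 1.07 FPKM. A count of 0 in a library allows up to 3 counts, or 0.0606 to 0.0961 CPM (counts scaled to library depth) depending on the library, and such limits cover counting error only. In tissue RNA, fewer cells of a type and less RNA per cell cannot be told apart.

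Both libraries that stood apart were of 1 week. Empty replicate 3 was the highest of the 9 libraries of that week for 28 of 36 members, against 15.4% of 16290 genes with at least 100 counts. With that library set aside, TSH-MMI replicate 2 was the highest of the remaining 8 for 16 of 36 members, against 12.4% of those genes. The members were not held to 100 counts, and Foxp3 and Ctla4, for example, had 6 and 8 over all 21 libraries. Empty replicate 3 led for 7 of 7 receptor and co-receptor genes, 7 of 7 adhesion and signalling genes, 4 of 4 immature thymocyte genes, 4 of 4 regulatory T cell and checkpoint genes, 4 of 6 B cell genes, 2 of 6 cytotoxic and NK cell genes and 0 of 2 plasma cell genes. The main results of 1 week are therefore given with all 9 libraries and with the 7 that are left without this pair. The pair was picked by levels of these genes, so the shares of members led by its libraries are a description. The same holds for p-values, without the pair, of T cell genes and of genes of leukocytes at large.

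**Figure D1:**
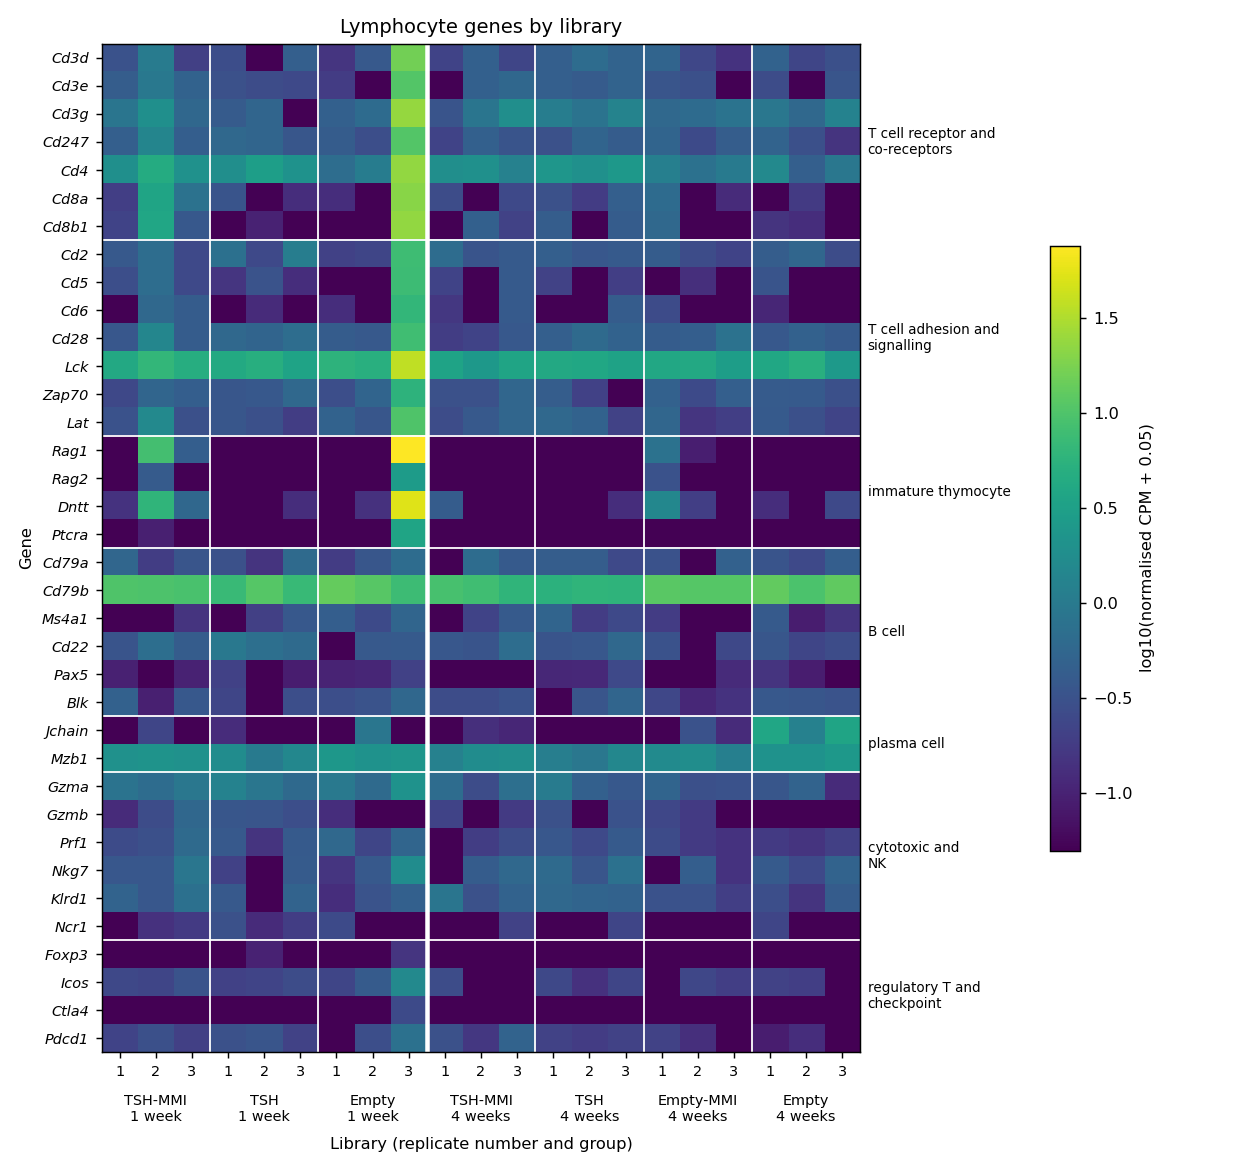
Level of each of the 36 lymphocyte genes in each of the 21 libraries, as log10 of the normalised CPM plus 0.05; columns are libraries by group and replicate number, rows are genes by role, and the thick white line divides 1 week from 4 weeks. Empty replicate 3 of 1 week is bright across the T cell and thymocyte rows, TSH-MMI replicate 2 of 1 week less so, and Jchain is bright in the Empty libraries of 4 weeks.

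The genes of immature thymocytes were read mainly in these libraries. Rag1 (chromosome 2, 101638252 to 101649532 on GRCm38), the recombinase subunit that cuts DNA, had 0, 373 and 16 counts in TSH-MMI replicates 1 to 3 at 1 week, 0 in each TSH library, and 0, 0 and 2878 in Empty replicates 1 to 3. At 4 weeks it had 0 in each TSH-MMI and TSH library, 28, 2 and 0 in Empty-MMI and 0 in each Empty library. Of 21 libraries 5 held any Rag1 read, and at 1 week the 7 libraries other than the high pair held at most 16. Exons of Rag1 overlap those of B230118H07Rik on the same strand in GENCODE, so some of its reads could belong to that gene.

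Rag2 (chromosome 2, 101624712 to 101632528), the partner subunit, had 0, 16 and 0 counts in TSH-MMI, 0 in each TSH library and 0, 0 and 103 in Empty at 1 week. At 4 weeks only Empty-MMI replicate 1 held Rag2 reads, with 10. Dntt (chromosome 19, 41029275 to 41059525), which adds bases at the joints of receptor genes, had 4, 264 and 21 counts in TSH-MMI, 0, 0 and 4 in TSH and 0, 3 and 1994 in Empty at 1 week. The 3 libraries of 1 week that held Rag1 were also the 3 highest for Dntt. At 4 weeks Dntt had 13, 0 and 0 counts in TSH-MMI, 0, 0 and 4 in TSH, 54, 7 and 0 in Empty-MMI and 4, 0 and 8 in Empty. Ptcra (chromosome 17, 46755663 to 46763712), the stand-in for the receptor alpha chain in immature cells, had 2 counts in TSH-MMI replicate 2 of 1 week, against 133 in Empty replicate 3 of that week, and 0 in the other 19 libraries.

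The RefSeq promoters of these genes, on GRCm38.p6, are shown because the genes were read together in the same libraries. Each runs from 250 bases before to 50 bases after the first transcribed base, 5′ to 3′ along the gene's strand, and capitals mark matches to the E box motifs CAGCTG and CAGGTG or the RUNX core TGTGGT on either strand.
Rag1, chr2:101649483-101649782, minus strand: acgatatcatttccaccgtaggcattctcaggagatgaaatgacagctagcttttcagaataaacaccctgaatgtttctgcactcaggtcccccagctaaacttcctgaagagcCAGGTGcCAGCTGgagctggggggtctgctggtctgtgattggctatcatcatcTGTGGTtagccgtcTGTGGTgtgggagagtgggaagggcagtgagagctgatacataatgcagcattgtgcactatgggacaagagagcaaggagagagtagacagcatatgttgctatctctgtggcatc
Rag2, chr2:101624462-101624761, plus strand: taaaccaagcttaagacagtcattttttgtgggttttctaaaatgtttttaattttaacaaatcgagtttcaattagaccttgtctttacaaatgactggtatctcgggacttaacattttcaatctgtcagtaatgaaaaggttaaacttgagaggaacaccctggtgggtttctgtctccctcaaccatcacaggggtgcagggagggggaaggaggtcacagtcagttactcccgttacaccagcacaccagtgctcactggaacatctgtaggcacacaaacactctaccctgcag
Dntt, chr19:41029025-41029324, plus strand: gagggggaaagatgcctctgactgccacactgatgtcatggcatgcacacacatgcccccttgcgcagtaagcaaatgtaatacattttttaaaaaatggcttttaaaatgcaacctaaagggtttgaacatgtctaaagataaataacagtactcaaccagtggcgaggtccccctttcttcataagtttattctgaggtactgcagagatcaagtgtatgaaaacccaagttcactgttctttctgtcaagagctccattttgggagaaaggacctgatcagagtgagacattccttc
Ptcra, chr17:46763663-46763962, minus strand: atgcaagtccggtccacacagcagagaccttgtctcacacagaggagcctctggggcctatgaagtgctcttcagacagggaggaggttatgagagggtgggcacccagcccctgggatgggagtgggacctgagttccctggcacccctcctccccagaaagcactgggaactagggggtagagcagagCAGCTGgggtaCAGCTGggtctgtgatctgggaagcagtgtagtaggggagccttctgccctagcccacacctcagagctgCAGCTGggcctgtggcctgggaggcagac

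With the first transcribed base as position 0, the Rag1 promoter held CAGGTG at -135, CAGCTG at -128 and TGTGGT at -81 and -67. The Ptcra promoter held CAGCTG at -60, -49 and 21, and neither the Rag2 nor the Dntt window held these letters. Of all 32851 promoters of the same length in the table, 16.3% held CAGCTG, 20.2% CAGGTG and 16.8% TGTGGT. The table gave 30 promoters for 25 of the members, of which 6, 16 and 10 held these motifs. A match is a description of the letters only.

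The pair of libraries with the most thymocyte reads did not hold the genes in 1 common proportion. With depth taken into account, Rag1 in TSH-MMI replicate 2 stood at 11.2% of its level in Empty replicate 3 (95% exact interval from counts 10.007 to 12.5), and Dntt at 11.4% (10.004 to 13.0). Cd8a and Cd8b1, the chains of the CD8 co-receptor, stood at 16.8% (14.1 to 20.0) and 16.2% (13.6 to 19.1). Cd3e, a signalling chain of the T cell receptor, stood at 8.33% (5.83 to 11.6), and Ptcra at 1.30% (0.155 to 4.78). Prss16 and Psmb11, made by the cortical epithelium of the thymus, stood at 2.29% (1.84 to 2.83) and 2.65% (1.503 to 4.34), outside the intervals of Rag1 and Dntt. Ccl25 and Tbata, also genes of thymic epithelium, stood at 7.25% (5.92 to 8.80) and 8.27% (6.82 to 9.96), near Cd3e. These percentages make no allowance for reads that libraries without many thymocyte reads also held. Cd3e had up to 18 counts in the other 7 libraries of that week, against 39 in TSH-MMI replicate 2. Rag1 had up to 16, against 373. Thymic epithelial genes were read together with thymocyte genes in both libraries.

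The reverse did not hold in every library. At 1 week TSH replicate 1 had 61 counts of Prss16 and 18 of Psmb11, with 0 of the 4 thymocyte members. TSH-MMI replicate 2 of that week had 89 and 16. At 4 weeks TSH replicate 3 had 484 counts of Prss16 and 107 of Psmb11, and Empty replicate 1 had 284 and 97, while Rag1 was at 0 in both. In the other 10 libraries of 4 weeks Prss16 had 15 to 38 counts and Psmb11 at most 13. Empty-MMI replicate 1, which held 92 counts of the 4 thymocyte members together, had 38 of Prss16 and 0 of Psmb11. Thymocyte reads per read of the 4 signalling chains Cd3d, Cd3e, Cd3g and Cd247 came at 1 week to 2.92 in TSH-MMI replicate 2, against 2.22 in Empty replicate 3. They came to 1.37 in Empty-MMI replicate 1 of 4 weeks, and at most 0.607 in every other library.

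Of 12 further genes that thymocytes use 10 were tested at 4 weeks. In TSH over Empty 4 of 10 fell and 0 rose, and in TSH-MMI over Empty 4 of 10 fell and 0 rose, where 5.61% and 5.97% of all genes were called lower. The log2 fold change was positive for 4 of 10 in TSH, up to 1.23, and for 1 of 10 in TSH-MMI, at 1.33. Tox, a nuclear factor of T cell development, fell by 1.13 in TSH (SE 0.29, edgeR adjusted p = 0.0199) and by 1.32 in TSH-MMI (SE 0.30, edgeR adjusted p = 0.00869) on the log2 scale. Satb1, a chromatin organiser, fell by 1.07 and 1.31, and Cd1d1, which presents lipids, by 0.66 and 0.69. Rag1 and Rag2 were at 0 counts in all libraries of these 3 groups. Which cells lay behind the falls of Tox, Satb1 and Cd1d1 was not tested.

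**Figure D2:**
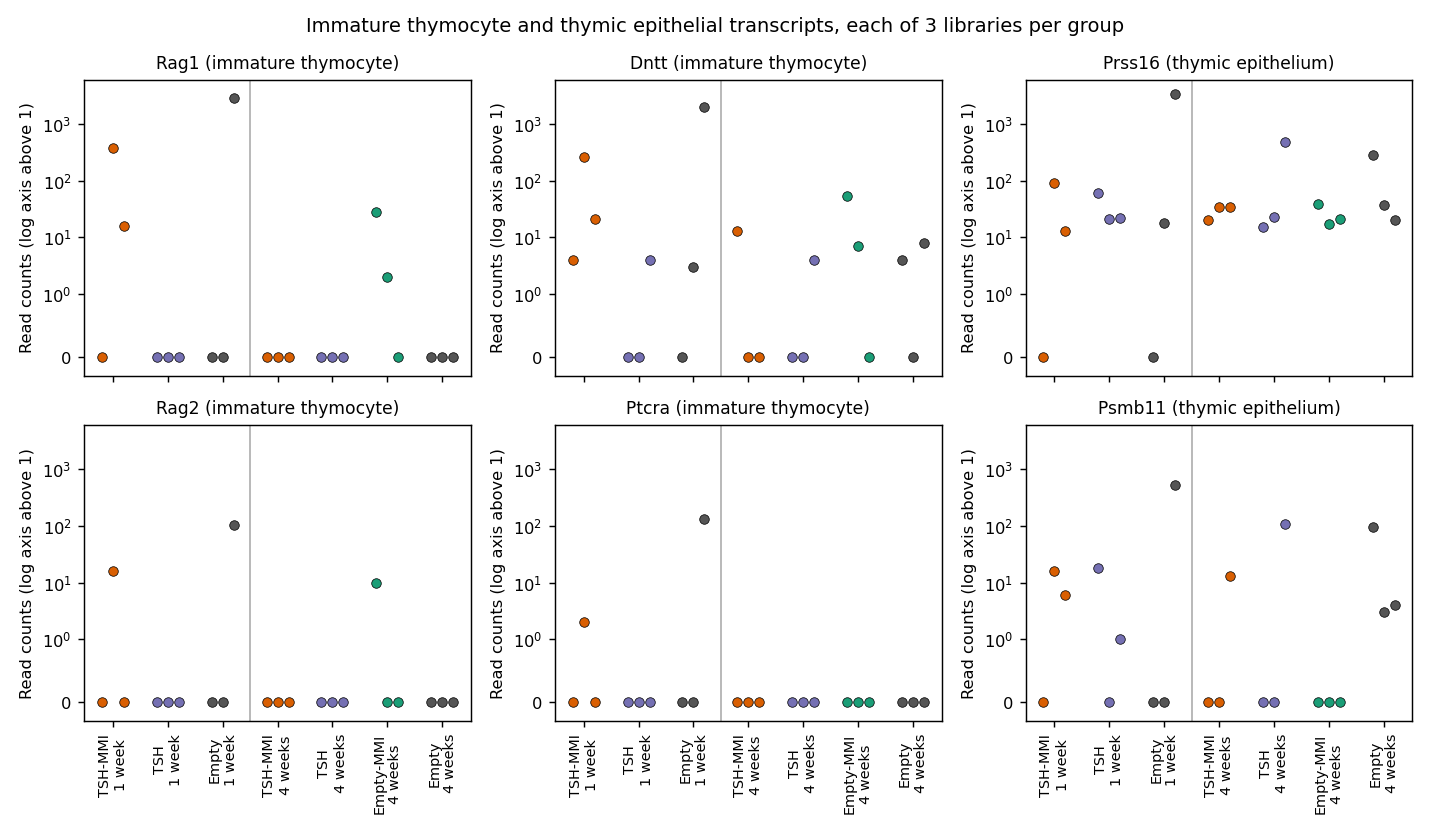
Read counts of the 4 immature thymocyte members and of 2 thymic epithelial genes in each library, on an axis that is linear up to 1 and logarithmic above it; each point is 1 library, and the grey line divides 1 week from 4 weeks. Rag1, Rag2, Dntt and Ptcra peak in Empty replicate 3 of 1 week, with TSH-MMI replicate 2 next at 1 week, whereas Prss16 and Psmb11 are also raised in TSH replicate 3 and Empty replicate 1 of 4 weeks.

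The first question was whether T cell receptor and co-receptor genes differed at 1 week. With all 9 libraries they did not pass the test in either comparison with Empty, and Empty replicate 3 set their direction. Cd3e (chromosome 9, 44998735 to 45009663) had 16, 39 and 18 counts in TSH-MMI, 10, 9 and 10 in TSH and 5, 0 and 404 in Empty. Cd8a had 6, 154 and 30 counts in TSH-MMI, 11, 0 and 4 in TSH and 3, 0 and 790 in Empty. Cd8b1 had 7, 166 and 13 counts in TSH-MMI, 0, 2 and 0 in TSH and 0, 0 and 886 in Empty. In each of these the Empty group held both the lowest or equal lowest library and the highest.

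With all 9 libraries the 7 receptor and co-receptor genes had a median log2 fold change of -4.61 in TSH over Empty and -2.44 in TSH-MMI over Empty, against -0.00468 and -0.00683 over all genes tested. Without the pair of libraries 6 of the 7 were tested, with medians of 0.99 and 0.81. The 7 adhesion and signalling genes (Cd2, Cd5, Cd6, Cd28, Lck, Zap70 and Lat) had medians of -2.43 and -2.55 with all libraries. Without the pair 5 of them were tested, with medians of 0.14 and -0.26. With all 9 libraries 29 of 36 members passed the filter on low counts and without the pair 24 of 36, so medians over tested members are a description.

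The remaining receptor chains showed the same split of the 1 week libraries. Cd3d and Cd3g, chains of the CD3 complex, had 44 and 81 counts in TSH-MMI replicate 2, against 595 and 895 in Empty replicate 3, and at most 20 and 34 in the other 7 libraries. Cd247, the zeta chain that carries most of the signalling motifs, had 60 counts in TSH-MMI replicate 2, against 406 in Empty replicate 3, and at most 21 in the other 7. The co-stimulatory receptor Cd28 had 62 against 299 in that pair and at most 32 in the others, and the adaptor Lat 67 against 382 and at most 17. Cd5 and Cd6, surface receptors that dampen receptor signals, had 28 against 284 and 24 against 237, and at most 11 and 15 in the others. Each of these was highest in Empty replicate 3 and next highest in TSH-MMI replicate 2.

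Cd2, an adhesion receptor, and Zap70, the kinase that binds Cd247, departed from that order. Cd2 had 14, 28 and 8 counts in TSH-MMI, 27, 8 and 53 in TSH and 6, 6 and 290 in Empty, and Zap70 had 8, 22 and 16 in TSH-MMI, 12, 13 and 27 in TSH and 9, 16 and 216 in Empty. In both, TSH replicate 3 was above TSH-MMI replicate 2. Lck, the kinase that starts T cell receptor signalling, was read in every library, at 4.15, 6.27 and 4.78 CPM in TSH-MMI, 4.18, 4.97 and 3.47 CPM in TSH and 5.59, 5.09 and 37.8 CPM in Empty. Every TSH library lay below every Empty library, also without Empty replicate 3 (TSH over Empty log2 fold change without the pair -0.35, SE 0.19, edgeR adjusted p = 0.213). TSH-MMI overlapped TSH, and it overlapped Empty only through TSH-MMI replicate 2, which belongs to the pair. Without the pair the log2 fold change of TSH-MMI over Empty was -0.26 (SE 0.21, edgeR adjusted p = 0.430).

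**Figure D3:**
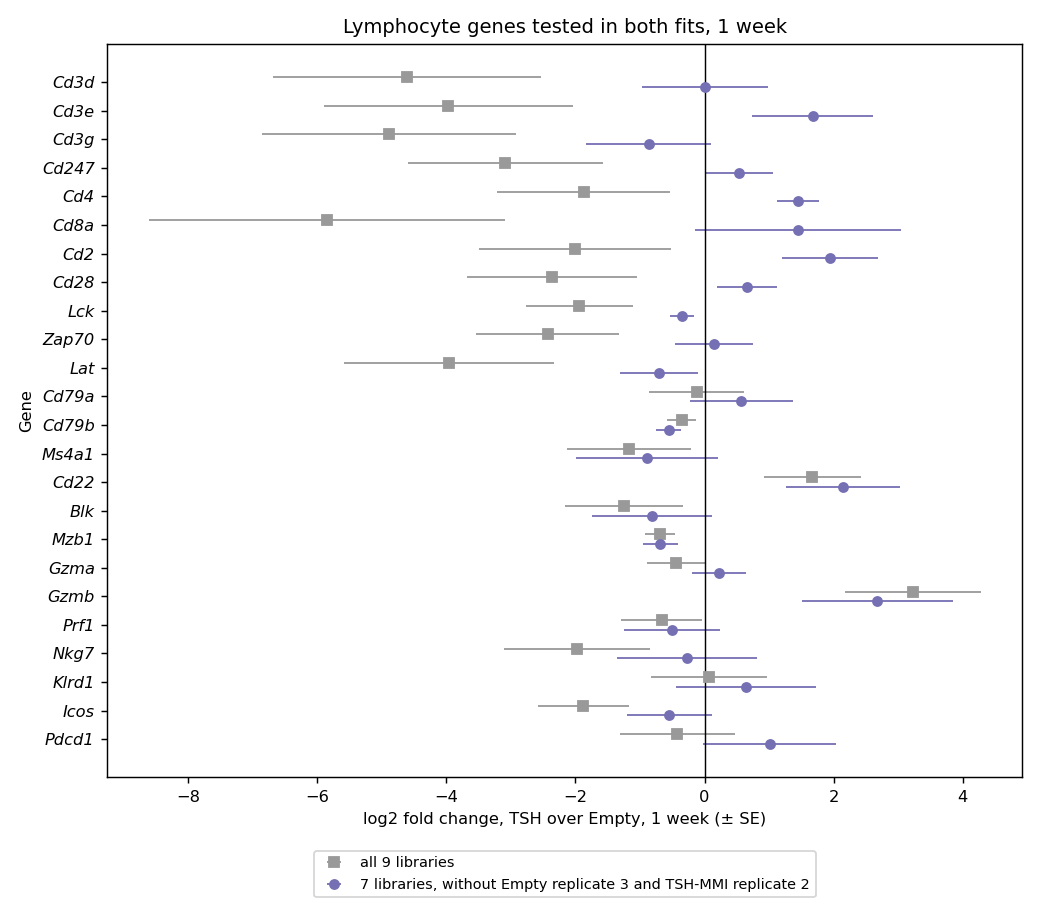
Log2 fold change of TSH over Empty at 1 week, with a standard error (SE) worked back from the F test, for the 24 members tested both with all 9 libraries (squares) and with the 7 left without TSH-MMI replicate 2 and Empty replicate 3 (circles). The T cell genes from Cd3d to Lat lie below 0 with all libraries and between -0.87 and 1.94 without the pair, whereas Mzb1 lies at -0.69 with all libraries and -0.68 without the pair.

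Of all members, 1 of 29 was called, that is had an edgeR adjusted p under 0.05, in TSH over Empty at 1 week, against 24.1% of 16956 genes. By direction this was 1 of 29 higher, against 14.8% of genes, and 0 of 29 lower, against 9.34%, with 6 members at an unadjusted p under 0.05. DESeq2 called 3 there, Gzmb, Mzb1 and Zap70, against 27.2% of genes, and limma on log2(FPKM + 1) called 1, Mzb1, against 22.6%. In TSH-MMI over Empty edgeR called 0 of 29, with 3 at an unadjusted p under 0.05, against 21.6% of genes, 13.6% higher and 7.97% lower. DESeq2 called 1 there, Zap70, against 25.3% of genes, and limma called 0, against 23.6%. Zap70 was highest in Empty replicate 3. Without the pair its log2 fold change was 0.14 in TSH over Empty (edgeR adjusted p = 0.888). In TSH-MMI over Empty it was then -0.28 (edgeR adjusted p = 0.823). In TSH-MMI over TSH edgeR called 0 of 29, with 1 at an unadjusted p under 0.05, against 0.0177% of genes, and DESeq2 and limma called 0, against 0.873% and 0% of genes. The share of members called was below that of all genes in both comparisons with Empty. These shares were not matched for level or spread, and 33 of 36 members had a median under 1 FPKM. A lower share therefore does not show that the members changed less.

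Without the pair of libraries, edgeR called 1 of 24 members higher in TSH than in Empty, against 13.8% of 17159 genes, and 1 of 24 higher in TSH-MMI than in Empty, against 11.6%. In both it was Cd4. None of the 24 was called lower in either, against 8.69% and 6.53% of genes, and 22.5% and 18.1% of genes were called in all. At an unadjusted p under 0.05 there were 6 and 3 members. In TSH-MMI over TSH it called 0 of 24, and 0 of 17159 genes, with 0 members at an unadjusted p under 0.05.

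Cd4 (chromosome 6, 124864693 to 124888247), the co-receptor of helper T cells, had 1.86, 4.49 and 2.02 CPM in TSH-MMI, 1.81, 2.97 and 2.04 CPM in TSH and 0.632, 1.03 and 23.2 CPM in Empty at 1 week. Apart from Empty replicate 3, every TSH-MMI and TSH library lay above every Empty library. With all 9 libraries the log2 fold change was -1.87 in TSH over Empty (SE 1.34, edgeR adjusted p = 0.370) and -1.57 in TSH-MMI over Empty (SE 1.32, edgeR adjusted p = 0.461). Without the pair it was 1.45 (SE 0.32, edgeR adjusted p = 0.0106) and 1.23 (SE 0.35, edgeR adjusted p = 0.0357). With Empty replicate 3 alone left out it was 1.45 (edgeR adjusted p = 0.0388) and 1.75 (edgeR adjusted p = 0.0208). The direction for Cd4 at 1 week thus turned on Empty replicate 3. That library was set aside for its levels of T cell and thymocyte genes in these data, and it was the highest for Cd4. Leaving it out raises this fold change by construction, so p-values without it are a description.

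At 4 weeks Cd4 rose in TSH over Empty. It had 2.31, 1.94 and 2.47 CPM in TSH, against 1.503, 0.410 and 0.869 CPM in Empty, with no overlap between the groups (log2 fold change 1.27, SE 0.37, edgeR adjusted p = 0.0352). The call was lost in 5 of the 6 fits that left out 1 library of the pair of groups, where the adjusted p ran from 0.0601 to 0.113, and held without Empty replicate 1. It was also lost with these groups fitted alone (edgeR adjusted p = 0.0822). With the level of skeletal muscle transcripts as a covariate, added after the data were seen, the log2 fold change was 1.14 (edgeR adjusted p = 0.179). In TSH-MMI it had 1.81, 1.93 and 1.20 CPM (log2 fold change over Empty 0.82, SE 0.37, edgeR adjusted p = 0.165), and in Empty-MMI 1.13, 0.724 and 0.975 CPM. The lowest TSH-MMI library overlapped the highest Empty library.

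The other T cell receptor genes did not pass at 4 weeks. Cd3e had 0, 15 and 26 counts in TSH-MMI, 13, 16 and 23 in TSH, 11, 12 and 0 in Empty-MMI and 11, 0 and 12 in Empty. Cd8a had 8, 0 and 10 counts in TSH-MMI, 8, 6 and 20 in TSH, 22, 0 and 3 in Empty-MMI and 0, 6 and 0 in Empty. Cd8b1 had 0, 15 and 8 in TSH-MMI, 12, 0 and 18 in TSH, 20, 0 and 0 in Empty-MMI and 5, 4 and 0 in Empty. These genes were near the limit of detection in most libraries, with Cd3e at 0 counts in 3 of 12 and Cd8a in 4 of 12. The 7 receptor and co-receptor genes had a median log2 fold change of 1.27 in TSH over Empty and 0.82 in TSH-MMI over Empty, against -0.03 over all genes tested in each.

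The receptor genes other than Cd4 had wide errors. In TSH over Empty the log2 fold change was 2.57 for Cd8a (SE 1.41, edgeR adjusted p = 0.246), 1.90 for Cd8b1 (SE 1.60, edgeR adjusted p = 0.464) and 1.27 for Cd3e (SE 1.10, edgeR adjusted p = 0.480). Cd3g had 10, 29 and 90 counts in TSH-MMI, 33, 34 and 62 in TSH, 20, 29 and 31 in Empty-MMI and 43, 27 and 50 in Empty at 4 weeks, with a log2 fold change of 0.22 in TSH over Empty (SE 0.50, edgeR adjusted p = 0.808). Cd3d had 0.76 (SE 0.59, edgeR adjusted p = 0.427) and Cd247 0.42 (SE 0.58, edgeR adjusted p = 0.673). Lck had 3.50, 2.44 and 3.56 CPM in TSH-MMI, 4.10, 3.89 and 3.32 CPM in TSH, 4.03, 4.10 and 2.88 CPM in Empty-MMI and 3.90, 4.999 and 2.61 CPM in Empty, with a log2 fold change of -0.03 in TSH over Empty (SE 0.24, edgeR adjusted p = 0.948). Of the adhesion and signalling genes 5 of 7 were tested at 4 weeks, with a median log2 fold change of -0.03 in TSH over Empty and 0.10 in TSH-MMI over Empty. Cd5 and Cd6 did not pass the filter, with at most 17 and 18 counts in any library of that week.

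Reads of Cd4 per read of the Cd3d, Cd3e, Cd3g and Cd247 chains came at 1 week to 0.987, 0.879 and 1.33 in TSH-MMI, 1.30, 2.43 and 2.24 in TSH and 0.615, 0.872 and 0.381 in Empty. At 4 weeks they came to 2.91, 0.919 and 0.424 in TSH-MMI, 1.07, 0.878 and 0.960 in TSH, 0.627, 0.583 and 0.784 in Empty-MMI and 0.747, 0.417 and 0.461 in Empty. Each TSH library thus held more Cd4 reads per Cd3 chain read than each Empty library of its week. This ratio was formed after the values were seen and was not tested.

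Genes made by leukocytes at large moved with Cd4. Of the 8 pan-leukocyte genes, 7 of 8 rose in TSH over Empty at 4 weeks and 8 of 8 in TSH-MMI over Empty, where 8.52% and 8.77% of all genes were called higher. Laptm5, a lysosomal membrane protein of blood cells, had a log2 fold change of 1.08 in TSH over Empty (SE 0.09, edgeR adjusted p = 1.93e-05). Ptprc, the common leukocyte phosphatase CD45, had 0.96 (SE 0.20, edgeR adjusted p = 0.00651). Their summed level was 154 to 180 CPM in TSH-MMI, 171 to 206 CPM in TSH, 107 to 111 CPM in Empty-MMI and 97.7 to 113 CPM in Empty, and no marker of the list was at 0 throughout a group. Of the 16 macrophage genes 14 rose in each of the same comparisons, Csf1r, the receptor for the macrophage growth factor, by 1.25 and 1.04 on the log2 scale (SE 0.09 each, edgeR adjusted p = 1.53e-05 and 3.05e-05). Their part in the Cd4 difference was not tested.

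At 1 week the count of pan-leukocyte genes depended on the libraries kept. With all 9, edgeR called 2 of 8 higher in TSH than in Empty, Laptm5 and Cd53, against 14.8% of all genes. In TSH-MMI over Empty it called 0 of 8, with 2 at an unadjusted p under 0.05, against 13.6%. Without the pair 8 of 8 and 7 of 8 were called higher, against 13.8% and 11.6% of all genes. The pair was set aside for high T cell and thymocyte genes, and those cells are leukocytes too. Leaving out Empty replicate 3 can thus raise these fold changes by construction, and the counts without the pair are a description. The macrophage genes changed less with the libraries kept, with 15 of 16 called higher in both comparisons with all 9 libraries and 14 and 13 without the pair.

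**Figure D4:**
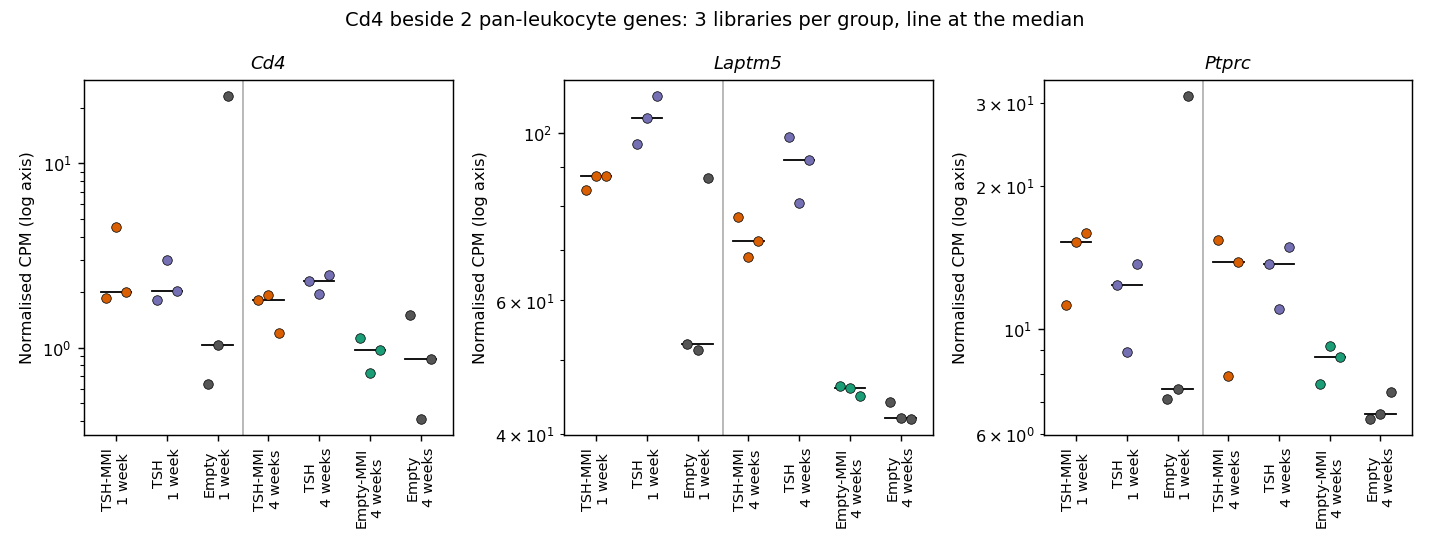
Normalised CPM, on a logarithmic axis, of Cd4 and of the pan-leukocyte genes Laptm5 and Ptprc in each library; points are libraries, black lines are group medians and the grey line divides 1 week from 4 weeks. Apart from Empty replicate 3 of 1 week, the TSH libraries lie above the Empty libraries of the same week in each panel.

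Of 14 genes of mature T cells outside the members 12 were tested at 4 weeks. Their median log2 fold change was 0.71 in TSH over Empty and 0.57 in TSH-MMI over Empty, with 10 of 12 positive in each. In each comparison 1 was called, against 8.52% and 8.77% of genes called higher. It was S1pr1 in both, with a log2 fold change of 0.75 (SE 0.08, edgeR adjusted p = 8.85e-05) and 0.70 (SE 0.08, edgeR adjusted p = 0.000124). S1pr1 lets T cells leave the thymus and lymph nodes, and blood vessels also make it. Trac, the constant part of the receptor alpha chain, had 0.81 (SE 0.41, edgeR adjusted p = 0.204) in TSH over Empty. At 1 week Trac had -1.59 in TSH over Empty with all 9 libraries (SE 1.11, edgeR adjusted p = 0.354) and was called without the pair, at 1.06 (SE 0.33, edgeR adjusted p = 0.0461). The median of the list at 1 week was -2.01 with all 9 libraries and 0.27 without the pair.

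Among the 6 B cell genes, Cd79b fell at 4 weeks. Cd79b (chromosome 11, 106311341 to 106314562), a signalling chain of the B cell receptor, had 9.06, 8.10 and 5.94 CPM in TSH-MMI, 5.51, 6.03 and 5.85 CPM in TSH, 11.8, 11.1 and 10.99 CPM in Empty-MMI and 12.9, 9.49 and 12.6 CPM in Empty. Every TSH-MMI and TSH library lay below every Empty and Empty-MMI library. The log2 fold change over Empty was -1.01 in TSH (SE 0.16, edgeR adjusted p = 0.00117) and -0.60 in TSH-MMI (SE 0.16, edgeR adjusted p = 0.0196). The TSH call held in each fit without 1 library of the compared groups, where the adjusted p reached 0.00717. The TSH-MMI call was lost without TSH-MMI replicate 3, Empty replicate 1 or Empty replicate 3, where it reached 0.0687. With the muscle covariate the adjusted p was 0.0115 in TSH over Empty and 0.172 in TSH-MMI over Empty.

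TSH-MMI over Empty-MMI gave a log2 fold change of -0.55 for Cd79b (SE 0.16, edgeR adjusted p = 0.0681). At 1 week it had 10.1, 9.88 and 9.26 CPM in TSH-MMI, 7.15, 10.9 and 7.01 CPM in TSH and 13.4, 11.2 and 7.51 CPM in Empty, and the groups overlapped. Without the pair of libraries the log2 fold change at 1 week was -0.56 in TSH over Empty (edgeR adjusted p = 0.0657) and -0.34 in TSH-MMI over Empty (edgeR adjusted p = 0.307).

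The level of Cd79b was out of proportion to the other B cell genes. It read 3.52 to 9.58 FPKM over the 21 libraries, against 0 to 0.556 FPKM for Cd79a, its partner chain in the receptor. Ms4a1, the B cell surface protein CD20, read at most 0.157 FPKM, Cd22, an inhibitory co-receptor, at most 0.187 FPKM, Blk, a kinase of the receptor, at most 0.196 FPKM and Pax5, the factor that fixes B cell identity, at most 0.0205 FPKM. All 5 thus lay below the lowest Cd79b value in every library.

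EdgeR called none of the other B cell genes. At 4 weeks Cd79a had 0, 22 and 17 counts in TSH-MMI, 12, 17 and 10 in TSH, 10, 0 and 18 in Empty-MMI and 14, 10 and 16 in Empty. At 1 week it had 21, 6 and 12 in TSH-MMI, 10, 4 and 29 in TSH and 5, 10 and 23 in Empty. Groups overlapped at both times. Ms4a1 had 0, 6 and 17 counts in TSH-MMI, 15, 6 and 10 in TSH, 5, 0 and 0 in Empty-MMI and 17, 2 and 4 in Empty at 4 weeks. At 1 week Ms4a1 had 0, 0 and 4 counts in TSH-MMI, 0, 6 and 16 in TSH and 15, 7 and 19 in Empty. Each TSH-MMI library lay below each Empty library there (log2 fold change -3.41, edgeR adjusted p = 0.0627), and with the replicate number as a block it was called lower. Without the pair of libraries the log2 fold change was -2.56 (SE 1.44, edgeR adjusted p = 0.253). Over the 5 B cell genes tested at 4 weeks the median log2 fold change was 0.13 in TSH over Empty and 0.13 in TSH-MMI over Empty, against -0.03 over all genes in each.

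Of 14 further B cell genes 9 were tested at 4 weeks. In TSH over Empty 3 rose and 1 fell, against 8.52% and 5.61% of all genes, and in TSH-MMI over Empty 2 rose and 1 fell, against 8.77% and 5.97%. Fcer2a, the low-affinity IgE receptor CD23, rose by 1.24 (SE 0.31, edgeR adjusted p = 0.0222) and 1.47 (SE 0.31, edgeR adjusted p = 0.00900). Spib, a transcription factor of B cells, rose by 0.83 (SE 0.25, edgeR adjusted p = 0.0375) and 0.91 (SE 0.25, edgeR adjusted p = 0.0222). The gene that fell was Igkc, described with the plasma cell genes. Cd79b, which fell, thus moved against Fcer2a and Spib.

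Both plasma cell members fell in TSH over Empty at 4 weeks. Over all roles, edgeR called 1 of 23 members higher and 3 of 23 lower there, against 8.52% and 5.61% of 17355 genes. In TSH-MMI over Empty it called 0 of 23 higher and 2 of 23 lower, against 8.77% and 5.97%. In Empty-MMI over Empty it called 0 of 23 higher and 1 of 23 lower, against 0.57% and 1.07%. Over both directions these were 4 of 23 against 14.1%, 2 of 23 against 14.7% and 1 of 23 against 1.64% of genes. DESeq2 called the same members, where 18.1%, 18.2% and 4.67% of genes were called. Limma called the same members and, in TSH-MMI over Empty, also Klrd1, where 13.2%, 13.1% and 1.49% of genes were called.

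Jchain (chromosome 5, 88519809 to 88527897), the J chain that joins IgM and IgA units, showed the widest gap between groups. At 4 weeks it had 0, 3 and 3 counts in TSH-MMI, 0 in each TSH library, 0, 13 and 3 in Empty-MMI and 187, 59 and 142 in Empty. Every Empty library lay above every other library of that week. In TSH it was at least 37.9-fold lower than in Empty, counting 3 counts per TSH library as the limit (edgeR adjusted p = 0.00112). In TSH-MMI the summed counts were 56.0-fold lower than in Empty with depth taken into account (95% exact interval 25.5 to 154, counting error only; log2 fold change -5.75, SE 0.91, edgeR adjusted p = 0.00212). In Empty-MMI they were 22.2-fold lower than in Empty (13.5 to 39.2; log2 fold change -4.51, SE 0.80, edgeR adjusted p = 0.0272).

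At 1 week Jchain did not pass the filter on low counts. It had 0, 8 and 0 counts in TSH-MMI, 3, 0 and 0 in TSH and 0, 28 and 0 in Empty. The 3 comparisons of 4 weeks share the Empty libraries, which alone held Jchain at 1 CPM or more. The Empty-MMI call was lost without Empty-MMI replicate 1 or 3 or Empty replicate 1 or 3, where the adjusted p reached 0.123, and with only these groups fitted (edgeR adjusted p = 0.0972).

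The RefSeq promoter of Jchain is shown because its groups lay the furthest apart among the called members of 4 weeks, with the match to an E box on the opposite strand, CAGGTG with its first letter of the window at position 5, in capitals.
Jchain, chr5:88527848-88528147, minus strand, GRCm38.p6: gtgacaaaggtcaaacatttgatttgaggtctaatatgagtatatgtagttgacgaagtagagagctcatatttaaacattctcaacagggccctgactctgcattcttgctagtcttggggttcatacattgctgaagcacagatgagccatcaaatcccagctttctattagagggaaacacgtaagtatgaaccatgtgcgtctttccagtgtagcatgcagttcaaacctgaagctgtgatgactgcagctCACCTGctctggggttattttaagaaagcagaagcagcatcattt
It held no octamer ATTTGCAT, a motif of immunoglobulin promoters found in 1.74% of the 32851 promoters and in 0 of the 30 member promoters.

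Igkc, the constant part of the kappa light chain of antibodies, was likewise highest in the Empty libraries of 4 weeks. At 4 weeks it had 3, 12 and 25 counts in TSH-MMI, 14, 15 and 46 in TSH, 3, 14 and 12 in Empty-MMI and 410, 251 and 490 in Empty. The log2 fold change over Empty was -4.71 in TSH-MMI (SE 0.56, edgeR adjusted p = 0.000264), -3.86 in TSH (SE 0.52, edgeR adjusted p = 0.000710) and -5.22 in Empty-MMI (SE 0.58, edgeR adjusted p = 0.00588). At 1 week the highest Igkc count, 108, was in Empty replicate 2, which also had the highest Jchain count of that week. Ighm, the IgM heavy chain, fell in Empty-MMI over Empty (log2 fold change -1.17, SE 0.17, edgeR adjusted p = 0.00851) and had -0.28 in TSH over Empty (SE 0.17, edgeR adjusted p = 0.297).

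Skeletal muscle transcripts moved with Jchain and Igkc at 4 weeks. The summed level of 12 muscle genes was 10.2 to 489 CPM in TSH-MMI, 7.33 to 1363 CPM in TSH, 63.6 to 302 CPM in Empty-MMI and 3499 to 12120 CPM in Empty. Acta1, muscle actin, had 195326, 36484 and 69445 counts in the Empty libraries with 187, 59 and 142 counts of Jchain. At 1 week TSH replicate 3 had 46767 counts of Acta1, more than Empty replicate 2 of 4 weeks, with 0 of Jchain and 23 of Igkc.

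With the muscle level as a covariate, added after the data were seen, Jchain stayed called in TSH over Empty (edgeR adjusted p = 0.0271). It was not called in TSH-MMI over Empty (log2 fold change -1.69, edgeR adjusted p = 0.741) or in Empty-MMI over Empty (-0.49, edgeR adjusted p = 0.988). In that fit 5.5%, 1.85% and 0.00576% of all genes were called in these comparisons. Since all 3 Empty libraries were high in muscle transcripts, muscle content and the Empty group of 4 weeks cannot be told apart in full.

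Mzb1 (chromosome 18, 35647265 to 35650266), a chaperone of antibody assembly in the endoplasmic reticulum, had 1.19, 1.73 and 1.81 CPM in TSH-MMI, 1.09, 0.859 and 1.43 CPM in TSH, 1.61, 1.78 and 1.15 CPM in Empty-MMI and 2.07, 2.03 and 2.46 CPM in Empty at 4 weeks. Each Empty library lay above each of the others. It fell in TSH over Empty (log2 fold change -0.95, SE 0.26, edgeR adjusted p = 0.0264), a call lost without TSH replicate 1 or 2 or Empty replicate 1 or 3, where the adjusted p reached 0.105, and with the muscle covariate (log2 fold change -0.70, edgeR adjusted p = 0.235). At 1 week it had 2.004, 2.12 and 2.02 CPM in TSH-MMI, 1.70, 0.974 and 1.45 CPM in TSH and 2.40, 2.03 and 2.22 CPM in Empty (TSH over Empty log2 fold change -0.69, SE 0.24, edgeR adjusted p = 0.0536). Without the pair of 1 week libraries this fold change was -0.68 (SE 0.27, edgeR adjusted p = 0.101). Exons of Mzb1 overlap those of SPATA24 on the same strand in GENCODE, so reads of the genes could be mixed and its values are uncertain.

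Mzb1 was read in every library while Jchain was at 0 counts in 11 of 21. Of 12 further plasma cell genes 7 were tested at 4 weeks, and Fkbp11 and Derl3, both of the endoplasmic reticulum, fell in TSH over Empty (log2 fold change -1.02 and -0.49, SE 0.14 and 0.13, edgeR adjusted p = 0.000393 and 0.0197). They also fell in TSH-MMI over Empty (-1.05 and -0.78, SE 0.14 and 0.13, edgeR adjusted p = 0.000287 and 0.00122). Sdc1, a surface proteoglycan of plasma cells that epithelia also make, rose in TSH-MMI over Empty (0.53, SE 0.11, edgeR adjusted p = 0.00698). In all, 0 of 7 rose and 2 of 7 fell in TSH over Empty, against 8.52% and 5.61% of genes, and 1 of 7 rose and 2 of 7 fell in TSH-MMI over Empty, against 8.77% and 5.97%. In Empty-MMI over Empty, where Jchain and Igkc fell, 1 of 7 rose and 0 of 7 fell, against 0.57% and 1.07%. The lowest log2 fold change of the 7 was -0.04 there, so Fkbp11 and Derl3 did not follow Jchain and Igkc. Which cells made Fkbp11 and Derl3 was not tested.

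**Figure D5:**
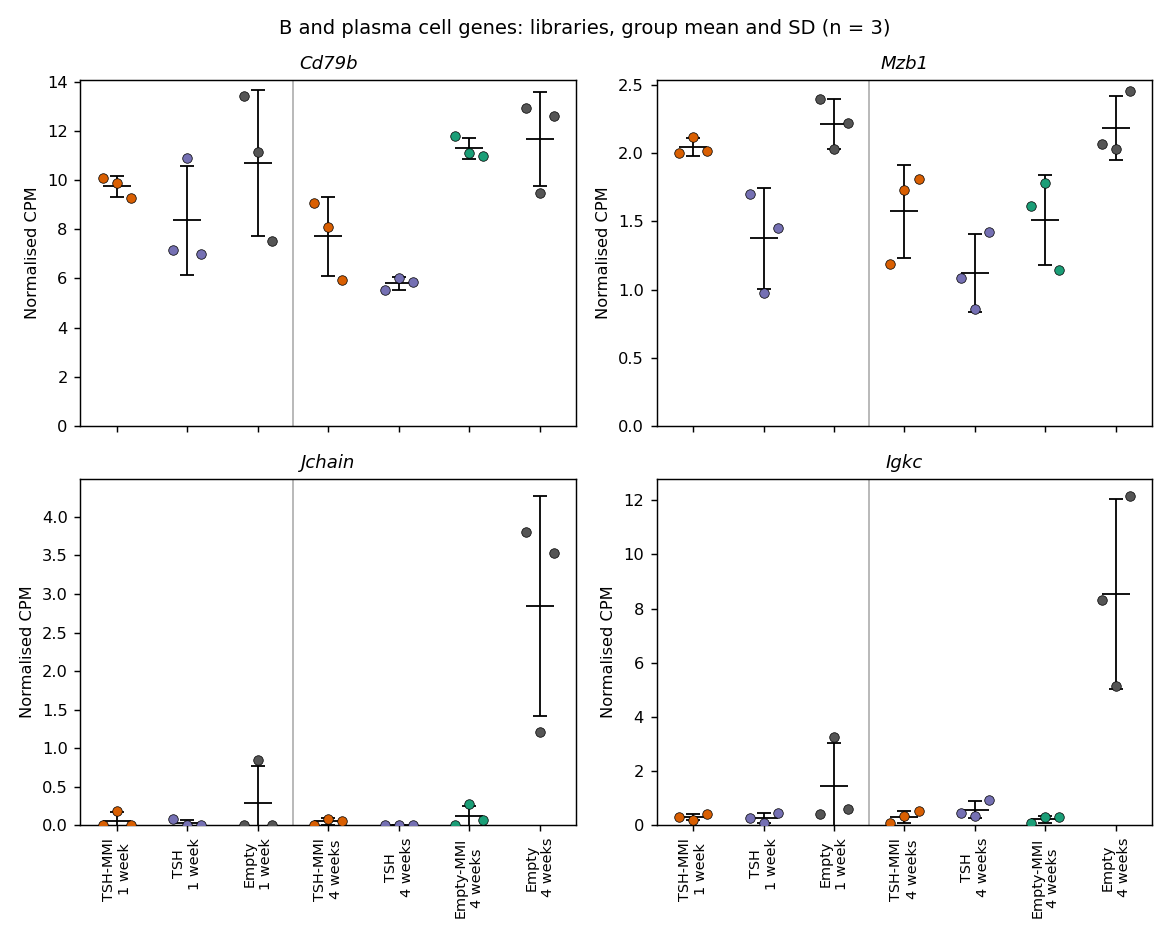
Normalised CPM of Cd79b, Mzb1, Jchain and Igkc in each library; points are libraries, black bars are the group mean and its SD (n = 3, cut at 0), and the grey line divides 1 week from 4 weeks. At 4 weeks Cd79b is lower in TSH-MMI and TSH than in Empty-MMI and Empty, whereas Jchain and Igkc are high in Empty alone.

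Among the cytotoxic and NK cell genes, Gzmb gave the call of 1 week. Gzmb (chromosome 14, 56258836 to 56262334), the granzyme that starts cell death in target cells, had 3, 10 and 21 counts in TSH-MMI, 12, 12 and 12 in TSH and 3, 0 and 0 in Empty. The TSH libraries lay above the Empty libraries. In TSH over Empty it rose by 3.23 on the log2 scale (SE 1.05, edgeR adjusted p = 0.0437), and its summed counts were 10.2-fold higher with depth taken into account (95% exact interval 3.21 to 51.6). In TSH-MMI over Empty the log2 fold change was 3.18 (SE 1.05, edgeR adjusted p = 0.0508), and without the pair of libraries 2.74 (SE 1.23, edgeR adjusted p = 0.154).

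The Gzmb call rested on few reads. It was lost without any 1 of the TSH libraries, without Empty replicate 2 and without Empty replicate 3, where the adjusted p reached 0.121, and without the pair with the most thymocyte reads (log2 fold change 2.68, edgeR adjusted p = 0.130). At 4 weeks it did not pass the filter, with 6, 0 and 6 counts in TSH-MMI, 8, 0 and 13 in TSH, 7, 6 and 0 in Empty-MMI and 0 in each Empty library.

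Gzma, a second granzyme, had 32, 27 and 35 counts in TSH-MMI, 48, 34 and 28 in TSH and 35, 19 and 78 in Empty at 1 week. At 4 weeks it had 22, 8 and 33 in TSH-MMI, 31, 19 and 16 in TSH, 18, 12 and 11 in Empty-MMI and 15, 23 and 3 in Empty. Groups overlapped at both times. Prf1, the pore protein perforin, had 0 to 23 counts per library, Nkg7, a granule protein, 0 to 64, Klrd1, the NK receptor CD94, 0 to 29, and Ncr1, an activating NK receptor, 0 to 10. Of 12 further genes of this role 5 were tested at 4 weeks, and edgeR called 0 in TSH over Empty, with 1 at an unadjusted p under 0.05, Klrb1c, the NK receptor NK1.1 (log2 fold change 2.098, SE 0.83, edgeR adjusted p = 0.1099). At 4 weeks the 4 members of this role that were tested (Gzma, Prf1, Nkg7 and Klrd1) had a median log2 fold change of 1.00 in TSH over Empty and 0.43 in TSH-MMI over Empty, against -0.03 over all genes in each.

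Regulatory T cell and checkpoint genes were close to absent at this depth. Foxp3, the factor that defines regulatory T cells, had 2 counts in TSH replicate 2 and 4 in Empty replicate 3 at 1 week and 0 in the other 19 libraries. Ctla4, an inhibitory receptor, had 8 counts in Empty replicate 3 of 1 week and 0 elsewhere. Icos, a co-stimulatory receptor, and Pdcd1, the inhibitory receptor PD-1, had 57 and 27 counts in that library, and at most 12 each in the other 8 libraries of 1 week. At 4 weeks Icos had 0 to 9 counts per library and Pdcd1 0 to 23, and neither passed the filter.

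Of 10 further genes of this role 9 were tested, and 2 rose in TSH over Empty at both times, against 14.8% of all genes called higher at 1 week and 8.52% at 4 weeks. Havcr2, the checkpoint receptor TIM-3, which macrophages also make, rose by 1.00 (SE 0.22, edgeR adjusted p = 0.00690) at 1 week and 1.24 (SE 0.24, edgeR adjusted p = 0.00396) at 4 weeks. Cd86, a co-stimulatory ligand on cells that present antigen, rose by 0.85 (SE 0.26, edgeR adjusted p = 0.0355) and 0.81 (SE 0.17, edgeR adjusted p = 0.00577). Without the pair of libraries the values at 1 week were 1.11 for Havcr2 (edgeR adjusted p = 0.0126) and 1.19 for Cd86 (edgeR adjusted p = 0.00850). At 4 weeks both also rose in TSH-MMI over Empty, Havcr2 by 1.17 (SE 0.24, edgeR adjusted p = 0.00513) and Cd86 by 1.06 (SE 0.17, edgeR adjusted p = 0.00104). Neither is made by T cells alone, and macrophage genes rose in the same comparisons. Which cells lay behind the rise of Havcr2 and Cd86 was not tested.

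Methimazole added to the TSH vectors gave no call among the members at 4 weeks. In TSH-MMI over TSH edgeR called 0 of 23, with 2 at an unadjusted p under 0.05, against 0.0173% of genes, and DESeq2 and limma called 0, against 0.472% and 0.0519% of genes. In TSH-MMI over Empty-MMI edgeR called 0 of 23, with 2 at an unadjusted p under 0.05, against 4.24% of genes. DESeq2 called 1 there, Cd79b, against 7.03% of genes, and limma called 0, against 5.02%. A p that misses the threshold does not show that the groups were alike.

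The change between times was asked of the TSH effect and of the TSH-MMI effect, each as the difference of its log2 fold change over Empty at 4 weeks from that at 1 week. For TSH edgeR called 0 of 31 members, with 12 at an unadjusted p under 0.05, against 1.35% of 17715 genes. DESeq2 called 0, against 3.93% of genes, and limma called 1, Jchain, against 4.24%. For TSH-MMI edgeR called 0 of 31, with 1 at an unadjusted p under 0.05, against 0.0169% of genes, and DESeq2 and limma called 0, against 0.581% and 0.215% of genes.

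These differences also turned on the pair of libraries. For TSH, 11 of the 12 members at an unadjusted p under 0.05 were T cell genes, all positive, and Cd3e, for example, differed by 5.25 (SE 2.21, edgeR adjusted p = 0.256). Without the pair edgeR called 0 of 30 members for TSH, with 1 at an unadjusted p under 0.05, against 1.34% of 18007 genes, and 0 of 30 for TSH-MMI, with 0 at an unadjusted p under 0.05, against 0.0333%. For TSH, Cd3e then differed by -0.40 (SE 1.70, edgeR adjusted p = 0.952). The median over the 7 receptor and co-receptor genes was 5.25 with all libraries and -0.09 without the pair, against -0.01 and 0.00 over all genes tested. For Cd4 the TSH effect at 4 weeks differed from that at 1 week by -0.17 without the pair (SE 0.53, edgeR adjusted p = 0.931).

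Lists of other tissues are given for 4 weeks, in TSH over Empty and then TSH-MMI over Empty, by edgeR. Of all genes 8.52% and 8.77% were called higher there, and 5.61% and 5.97% lower. A count of 1 in lists this short does not set a list apart from that share. Of 8 thymic epithelium genes tested 2 and 1 rose, Ctsl in both, by 0.77 and 1.18, a protease that macrophages and other tissues also make. Of 6 lymph node stroma genes 1 fell in each, Cxcl13, a chemokine that draws B cells (-1.23 and -1.36, SE 0.24 each, edgeR adjusted p = 0.00625 and 0.00339), and 1 rose in TSH-MMI. Of 4 neutrophil genes 1 rose in each, Csf3r. Of 6 adipocyte genes 2 fell in each, Adipoq and Cidec. Of 12 skeletal muscle genes 0 and 2 fell, with 2 and 11 at an unadjusted p under 0.05. None of 4 parathyroid genes (0 and 0 at an unadjusted p under 0.05) or 6 erythrocyte genes (1 and 1) was called.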

How the data were processed

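RNA was sequenced from 21 thyroid libraries of 7 groups, made with a stranded poly(A) kit per the labels' protocols. The deposited tables, 1 per week, hold read counts and FPKM for each gene in each library, according to their headers. TPM values, also deposited by the authors, were not used. HISAT2 2.1.0, StringTie 2.1.3b, Trimmomatic 0.38, FastQC 0.11.7 and the build mm10 are listed in the submitters' processing notes. For the annotation, the counting step and its use of strand, the answer is not given in the sources used here, and reads of overlapping genes may be shared.

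Counts of all genes passing filterByExpr were fitted with edgeR 4.0.16 in R 4.3.3 (TMM scaling, robust quasi-likelihood F tests on contrasts of group means, Benjamini-Hochberg adjustment over all genes tested, threshold 0.05), with 16956 genes at 1 week, 17355 at 4 weeks and 17715 for both times. TMM factors ran from 0.912 to 1.1, and the biological coefficient of variation was 0.184 to 0.189. CPM values are TMM-normalised within each week. Libraries of a group differed beyond counting error in all 21 pairs (chi-square over its degrees of freedom 11.1 to 150). Each SE given with an edgeR value is the absolute log2 fold change divided by the square root of F, not a fitted error. The fit was tested on simulated data. Count ratios have exact conditional binomial intervals (scipy 1.17.1). Promoters and positions are from RefSeq on GRCm38.p6, overlaps from GENCODE.

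The members, gene lists and rules were chosen with earlier results of these data known. All 36 members are accounted for. Values in every library are given for the thymocyte members, for Cd3e, Cd4, Cd8a, Cd8b1, Cd79a, Ms4a1, Jchain, Gzma and Foxp3, and for members called in any comparison. Other lists are given by counts called, with named genes among the 4 of smallest p. Results of some genes of these lists are not reported here. As alternatives, the fits were repeated with DESeq2 1.42.0, limma 3.58.1 on log2(FPKM + 1), relative log expression (RLE) size factors, no filter, a fit of the compared groups alone, a replicate block, leaving out each library, leaving out both libraries with the most thymocyte reads and, chosen after seeing the data, a skeletal muscle covariate at 4 weeks. The libraries left out together were picked by levels in these data. TSH-MMI replicate 3 of 1 week, which was kept, held 37 counts of the thymocyte members.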

Additional observations from a re-analysis of the deposited data

How the results depend on the processing

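Calls of the lymphocyte genes moved with the settings as follows. Besides the main fit, only DESeq2, limma, the muscle covariate and the fit without both libraries have their shares of all genes given above. Counts of members under the other settings describe how calls moved and are not set against such a share. In TSH over Empty at 1 week, where 1 member was called, RLE size factors gave 2 and DESeq2 3, and no filter, only the compared groups and the replicate block gave 0 each. In TSH-MMI over Empty at 1 week, where 0 were called, DESeq2 (Zap70), the replicate block (Ms4a1) and the fit without both libraries with the most thymocyte reads (Cd4) gave 1 each. In TSH over Empty at 4 weeks the muscle covariate gave 2 and only the compared groups 3, without Cd4, in place of 4. In TSH-MMI over Empty at 4 weeks only the compared groups gave 1 and the muscle covariate 0, in place of 2. In Empty-MMI over Empty only the compared groups, the replicate block and the muscle covariate gave 0, in place of 1. DESeq2 gave 1 in TSH-MMI over Empty-MMI and limma 1 for the TSH effect between times, in place of 0. Leaving out 1 library gave 0 to 2 in TSH over Empty and 0 to 3 in TSH-MMI over Empty at 1 week, and 2 to 3, 1 to 2 and 0 to 1 in TSH, TSH-MMI and Empty-MMI over Empty at 4 weeks, and 0 in the other 5 comparisons. Cd4 turned round at 1 week, to 1.45 in TSH over Empty and 1.23 in TSH-MMI over Empty without both libraries, where leaving out 1 library gave -2.42 to 1.45 and -2.12 to 1.75, the upper values without Empty replicate 3. Of the results of single genes under an alternative, 89 kept direction and side of the threshold, 34 lost the call and 4 reversed.

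Over all genes, DESeq2 called 810 in Empty-MMI over Empty, 1220 in TSH-MMI over Empty-MMI and 696 for the TSH effect between times, against 285, 736 and 239 by edgeR. Only the compared groups gave 73 and 115, and the replicate block 101 and 149, for the first and last of these. With the muscle covariate 954, 321 and 1 were called in TSH, TSH-MMI and Empty-MMI over Empty, against 2452, 2558 and 285. Limma called 752 for the TSH effect. In TSH-MMI over TSH edgeR called 3 genes at each time, DESeq2 148 at 1 week and 82 at 4 weeks, and limma 0 and 9. For the TSH-MMI effect between times edgeR called 3, DESeq2 103 and limma 38. Without 1 library, TSH over Empty gave 2649 to 4114 at 1 week and 1319 to 2465 at 4 weeks, TSH-MMI over Empty 2094 to 3489 and 1415 to 2373, Empty-MMI over Empty 20 to 326 and TSH-MMI over Empty-MMI 255 to 625.

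The replicate numbers did not pair the libraries: of 27 same-numbered pairs 5 had deviations correlated above 0.1, with r from -0.251 to 0.267. The replicate block changed member calls as given above and no other.

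Depth limits these results. A count of 0 allows up to 0.0961 CPM, and 33 of 36 members had a median under 1 FPKM. With 3 libraries per group, leaving out 1 library ended 5 of the 8 member calls at least once.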
